A study of Macaca mulatta with 13 samples.

Results

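HOMER1 and its partners at the muscle triad were examined in a thigh muscle, the vastus lateralis, of old male rhesus monkeys. The genes were HOMER1, which had been among the genes with the lowest p between the diets in these same arrays, and 9 genes chosen for their place in calcium release. All probe sets that the platform annotation assigned to exactly 1 of these 10 symbols were taken. This gave 5 of 14132 named genes, HOMER1, CACNB1, TRDN, JPH1 and JPH2, with 10 of 52766 probe sets. HOMER2, RYR1, CACNA1S, SLN and PLN matched no probe set by symbol and were not analysed here. The calorie restricted (CR) group held 8 animals of 27 to 32 years, with 18.5 years given as the time on the restricted diet, and the control diet group held 5 animals of 27 to 30 years. All animals were male, and each gave 1 one-colour Affymetrix array. The values were MAS5 signals, a brightness per probe set, used here as log2.

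The triad is where a T-tubule, an inward fold of the fibre's surface membrane, meets the sarcoplasmic reticulum, the calcium store, on each side. A voltage sensor in the T-tubule opens the ryanodine receptor in the store's membrane, and the released calcium starts contraction. Junctophilins hold the membranes together, triadin ties the calcium-binding protein calsequestrin to the release channel, and calcium pumps refill the store. Homer proteins are scaffolds whose EVH1 domain binds proline-rich stretches of ryanodine receptors, inositol trisphosphate receptors and TRPC channels. In rodents HOMER1 has long forms that link partners through a coiled coil and a short, activity-induced form without it. Which of these forms each probe set detects, and whether it detects HOMER1 RNA alone, was not known from the annotation.

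Markers of skeletal muscle fibres were bright, with 6 of 12 measured (among them CKM, TTN and MYH2). Their summed signal was 291336 to 446458 in CR animals and 225160 to 441410 in controls. These markers do not tell 1 muscle from another, so the vastus lateralis rests on the label. Over the 26383 probe sets tested, those in the brighter 50%, r between any pair of arrays was 0.834 to 0.940. With limma's moderated test on diet and Benjamini-Hochberg adjustment, 0 of them passed an adjusted p of 0.05 (0%), while 2.43% had an unadjusted p under 0.05. The groups did not overlap for 0.072% of probe sets, and the CR mean was the higher one for 48.1%. Of the 10 probe sets described here 9 were tested; the other, for JPH2, was too dim. Because HOMER1 was picked from this very contrast, diet differences below are descriptions with their standard errors, with no test. Of the 9 tested probe sets 0 passed the adjusted threshold, 1 had an unadjusted p under 0.05 (the HOMER1 probe set that led to the choice), and 0 had groups that did not overlap.

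HOMER1 had 3 probe sets, called here the first, the second and the third by their mean signal. The second carried the diet difference. Its log2 signal in the 8 CR animals ran from 10.35 to 13.06 with a median of 12.16, and in control replicates 1 to 5 it was 9.56, 10.64, 11.64, 11.09 and 9.35. Thus 6 of 8 CR animals lay above the highest control, while CR replicates 5 and 8, at 10.85 and 10.35, lay within the range of the controls. The mean was 11.96 ± 0.92 in CR animals (SD, n = 8) and 10.45 ± 0.98 in controls (SD, n = 5), a log2 difference of 1.50 ± 0.45 (SE) or 2.83-fold. With 1 animal left out at a time the difference stayed between 1.23 (without control replicate 5) and 1.80 (without control replicate 3).

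**Figure D1:**
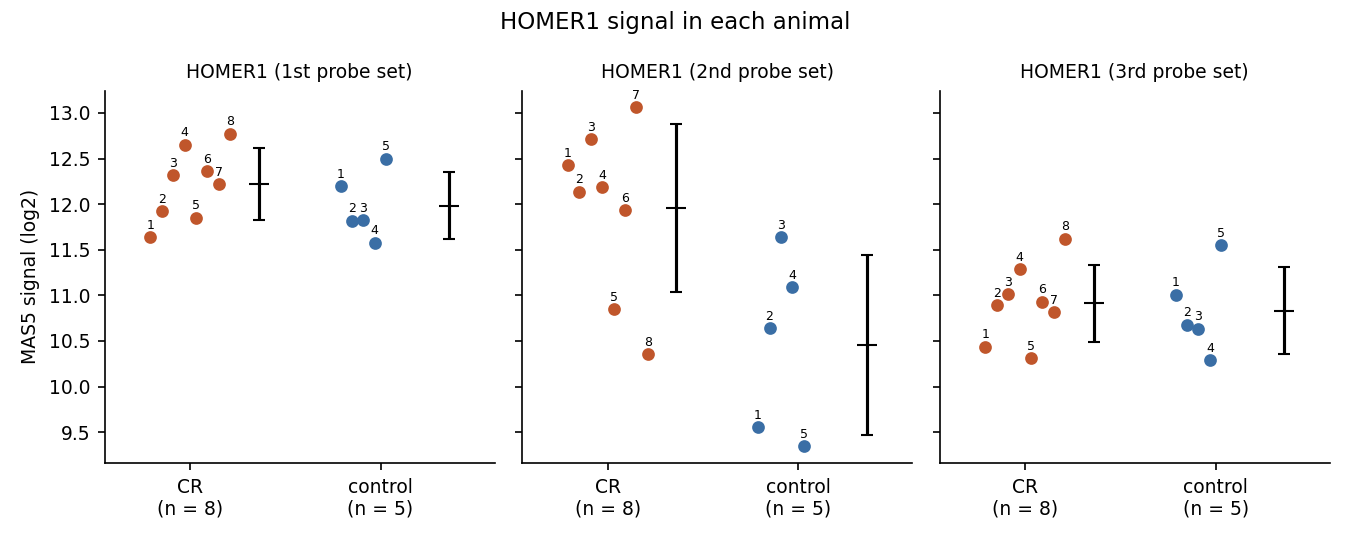
Log2 MAS5 signal of the 3 HOMER1 probe sets in each animal. Points are animals with their replicate numbers, CR left (n = 8) and control right (n = 5), and bars are means with SD. In the second probe set 6 of 8 CR animals lie above the highest control at 11.64, and in the first and the third the diets overlap over most of their range.

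The other two probe sets of the gene showed far smaller differences. For the first, log2 signals were 11.64 to 12.77 in CR animals (median 12.27), against 12.20, 11.82, 11.83, 11.58 and 12.50 in control replicates 1 to 5. The groups overlapped, with 2 of 8 CR animals above the highest control, and the difference was 0.23 ± 0.21 (SE). For the third, the signals were 10.31 to 11.62 in CR animals (median 10.91), against 11.01, 10.68, 10.63, 10.29 and 11.55 in control replicates 1 to 5. Its difference was 0.081 ± 0.23 (SE), and it turned to -0.054 without control replicate 4. The 95% interval was 0.55 to 2.46 for the second, -0.20 to 0.67 for the first and -0.41 to 0.57 for the third. The lower end of the second thus lay near the upper ends of the others. HOMER1 was chosen from this contrast, so the interval of the second is a description and its place against 0 is no test.

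Within the diets, the HOMER1 probe sets also went apart. After each diet's mean was subtracted, which removes the contrast used to choose the gene, the first and the third moved together over the 13 animals. Pearson's r was 0.94 and Spearman's rho 0.93 (permutation p = 3e-05 and 5e-05, adjusted over 19 pairs 0.00057 and 0.00095). Without the 2 animals farthest from the median r was 0.93, without control replicate 4 and CR replicate 8 it was 0.91, and within the CR animals alone it was 0.92 (exact permutation p = 0.00193, n = 8). The 5 controls are too few for a correlation of their own.

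The second probe set did not follow them. Its r was -0.47 with the first (rho -0.44) and -0.48 with the third (rho -0.45), with adjusted permutation p = 0.200 for each r, and the r with the third was 0.042 without the 2 farthest animals. CR replicate 8 had the highest signal of all CR animals in the first and the third probe sets and the lowest in the second. Control replicate 5 showed the same arrangement among controls. The second probe set also varied more: its SD within the diets was 0.94 on the log2 scale, above 92.0% of tested probe sets, where the first had 0.38, the third 0.44 and the median probe set 0.45.

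**Figure D2:**
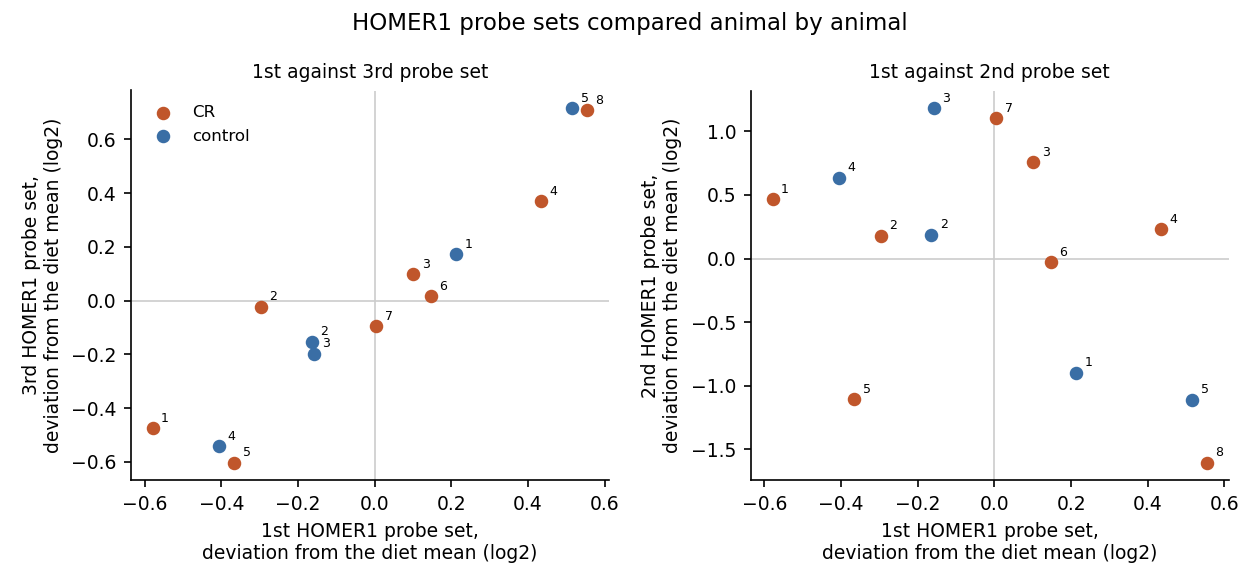
Deviation of each animal from its diet mean (log2) in the first HOMER1 probe set, against the third (left, r = 0.94) and the second (right, r = -0.47). Points are animals with replicate numbers, 8 CR and 5 control.

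The genes most like each HOMER1 probe set were looked up as a description. Likeness was Pearson's r over the 13 animals after subtracting diet means, and the 3 highest of 15770 named probe sets were taken, 1 per gene, so high values are given by the selection itself. The first HOMER1 probe set was most like MOB4, a kinase-associated MOB protein (r = 0.94), CA14, a membrane-bound carbonic anhydrase (0.93), and PTP4A2, a protein tyrosine phosphatase (0.92). The third was most like CA14 (0.94), the ubiquitin ligase gene ARIH1 (0.90) and KLHL23 (0.89). The second was most like FDXR, the mitochondrial ferredoxin reductase (0.90), RNASEH2A, the catalytic subunit of ribonuclease H2 (0.87), and the chromatin protein gene HMGB3 (0.83). Since the first and the third probe sets are themselves alike and the second is not, these names add nothing independent to that.

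CACNB1 encodes the beta subunit of the voltage sensor, which brings the sensor's channel subunit to the T-tubule. In its first probe set the log2 signal ran from 13.09 to 14.17 in CR animals (median 13.91), against 13.15, 14.13, 13.19, 13.21 and 13.48 in control replicates 1 to 5. The CR animals spread over the whole range, and 4 of 5 controls lay in its lower part, with control replicate 2 near the top. The difference was 0.34 ± 0.21 (SE), or 1.26-fold, and 7 of 8 CR signals exceeded the control mean. In the second, dimmer probe set the signal was 8.18 to 9.57 in CR animals (median 8.75), against 8.36, 8.46, 8.20, 8.36 and 8.68 in the controls. There 5 of 8 CR animals were above the highest control and CR replicate 2 was below the lowest, and the difference was 0.43 ± 0.22 (SE). The difference of both CACNB1 probe sets stayed positive with each animal left out, from 0.27 to 0.51 and from 0.33 to 0.53. Within the diets the correlation of the CACNB1 probe sets was r = 0.45 (rho 0.47), and it did not pass after adjustment over the 19 pairs (permutation p = 0.126, adjusted p = 0.200).

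TRDN encodes triadin, the anchor of calsequestrin at the release channel. Its first probe set had log2 signals of 14.53 to 15.15 in CR animals (median 14.97), against 15.12, 14.77, 14.95, 14.26 and 15.13 in control replicates 1 to 5. The second had 11.79 to 12.40 in CR animals (median 12.00), against 12.42, 11.44, 11.95, 10.81 and 12.68 in control replicates 1 to 5. In both, control replicate 4 was the lowest of all 13 animals, and controls 1 and 5 were at the top of their group. The second varied more among controls, with an SD of 0.24 in CR animals and 0.76 in controls. The differences were 0.080 ± 0.17 and 0.24 ± 0.25 (SE), and both turned sign without control replicate 4, to -0.068 and -0.026. Within the diets the TRDN probe sets had r = 0.67 and rho = 0.63 (permutation p = 0.0329 and 0.0642, adjusted p = 0.125 and 0.174), but r was -0.038 in CR animals alone and 0.27 without control replicate 4 and CR replicate 8.

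The junctophilins JPH1 and JPH2 span the gap between the T-tubule and the calcium store. JPH1, the main junctophilin of skeletal muscle, had log2 signals of 9.47 to 11.29 in CR animals (median 10.30), against 10.09, 10.28, 10.35, 9.19 and 10.49 in control replicates 1 to 5. CR replicate 8 was the highest animal and control replicate 4 the lowest, and all others lay between them. The difference was 0.24 ± 0.26 (SE), and 0.015 without control replicate 4. JPH2, which predominates in the heart, had 11.75 to 12.81 in CR animals (median 12.05), against 12.01, 12.62, 11.47, 11.64 and 12.39 in control replicates 1 to 5, and the difference was 0.13 ± 0.22 (SE). Leaving out control replicate 3 gave -0.011, and leaving out control replicate 2 gave 0.28. Its other probe set differed in the opposite direction. That one was too dim to be tested, with 3.52 to 5.92 in CR animals (median 4.78), against 5.73, 7.33, 3.45, 4.79 and 6.85 in the controls, and its difference was -0.99 ± 0.66 (SE), with -0.57 without control replicate 2 and -1.54 without control replicate 3. The controls covered more than the whole CR range in that probe set, with SDs of 0.75 in CR animals and 1.57 in controls.

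**Figure D3:**
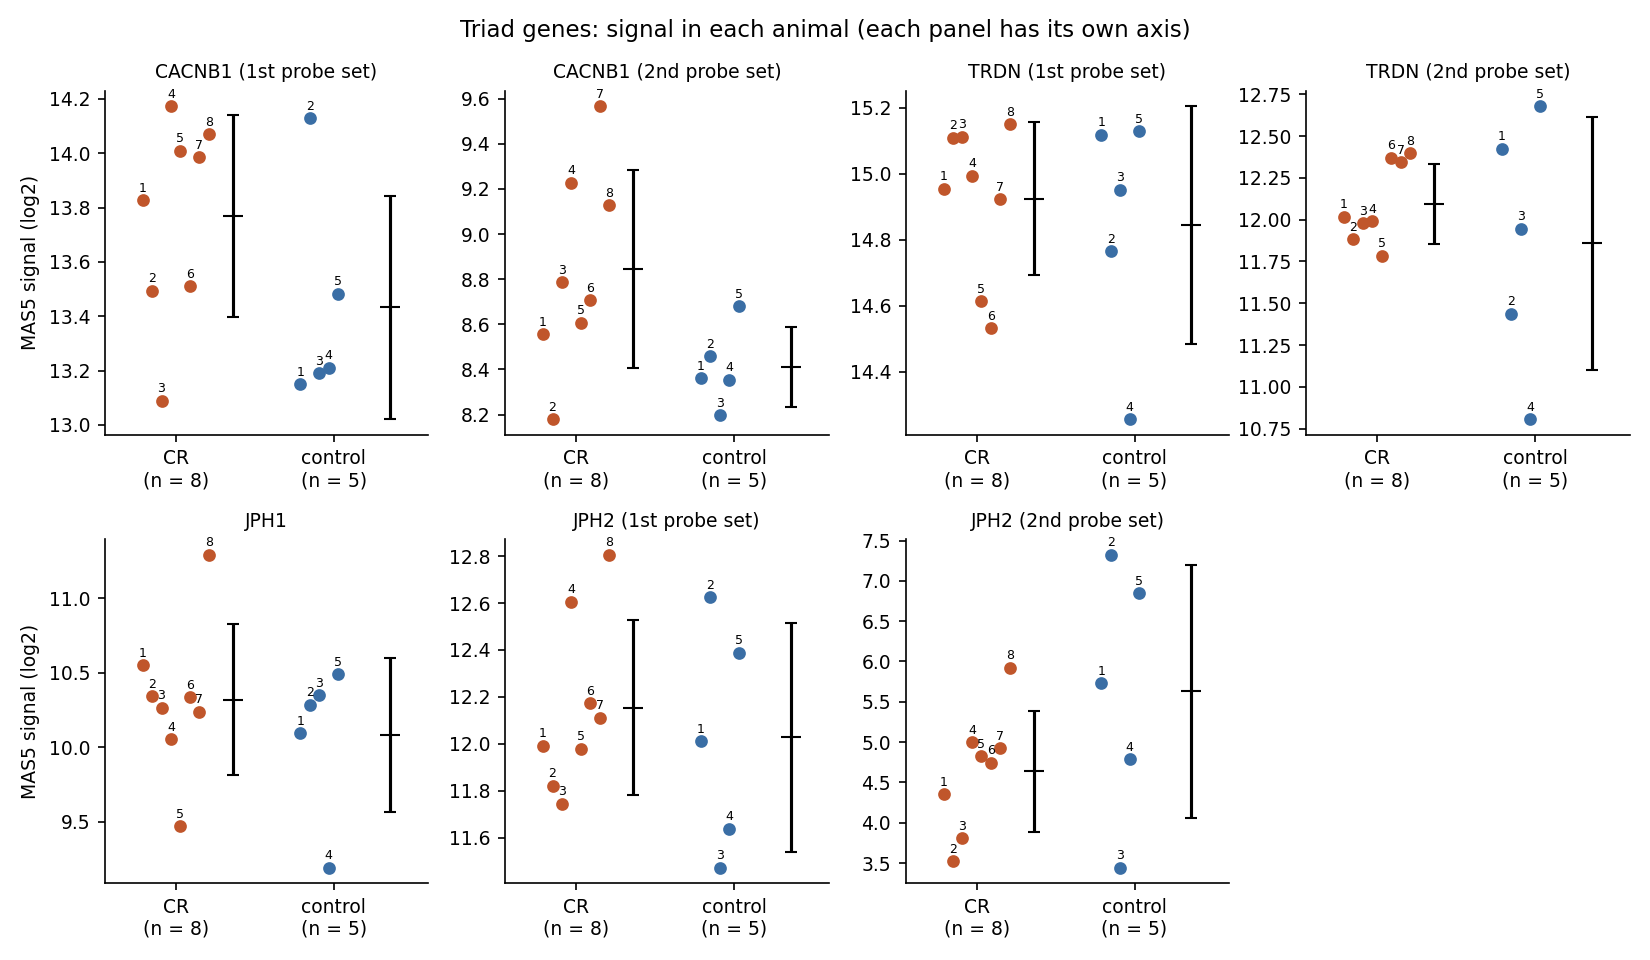
Log2 MAS5 signal of CACNB1, TRDN, JPH1 and JPH2 in each animal, with a separate vertical axis per panel. Points are animals with replicate numbers, CR left (n = 8) and control right (n = 5), and bars are means with SD. Control replicate 4 is the lowest animal in both TRDN panels and for JPH1, and CR replicate 8 is the highest for JPH1 and in the first JPH2 panel.

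The direction of several of these small differences rested on a few animals, though not for the first HOMER1 probe set or either CACNB1 probe set. With all animals, 9 of 10 probe sets had the higher mean in CR, where 48.1% of all tested probe sets did. This count is a description: HOMER1 was chosen from this contrast, its probe sets are among those counted, and all share the same arrays. Without control replicate 4 the CR mean was the higher one for 6 of the 9 tested probe sets. Without control replicate 4 and CR replicate 8 it was so for 4 of 9. Without that pair of animals the second HOMER1 probe set differed by 1.89, the first by 0.053 and the third by -0.16. Control replicate 4 was also the lowest animal for skeletal fibre markers, at -0.46 from the mean of all animals on the log2 scale, and the highest for those of endothelium, pericytes and smooth muscle (1.25), adipocytes (1.56), fibroblasts and matrix (1.16), nerve (0.98) and denervation (0.84). CR replicate 8 was the lowest animal for slow fibre markers (-2.97), adipocytes (-1.68) and endothelium (-0.92). The log2 ratio of 3-prime over 5-prime actin control probe sets, a sign of RNA quality, was highest in control replicate 4, at 2.41. The part of these features in the results was not tested. In whole muscle, fewer cells of a type and less RNA per cell cannot be told apart.

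**Figure D4:**
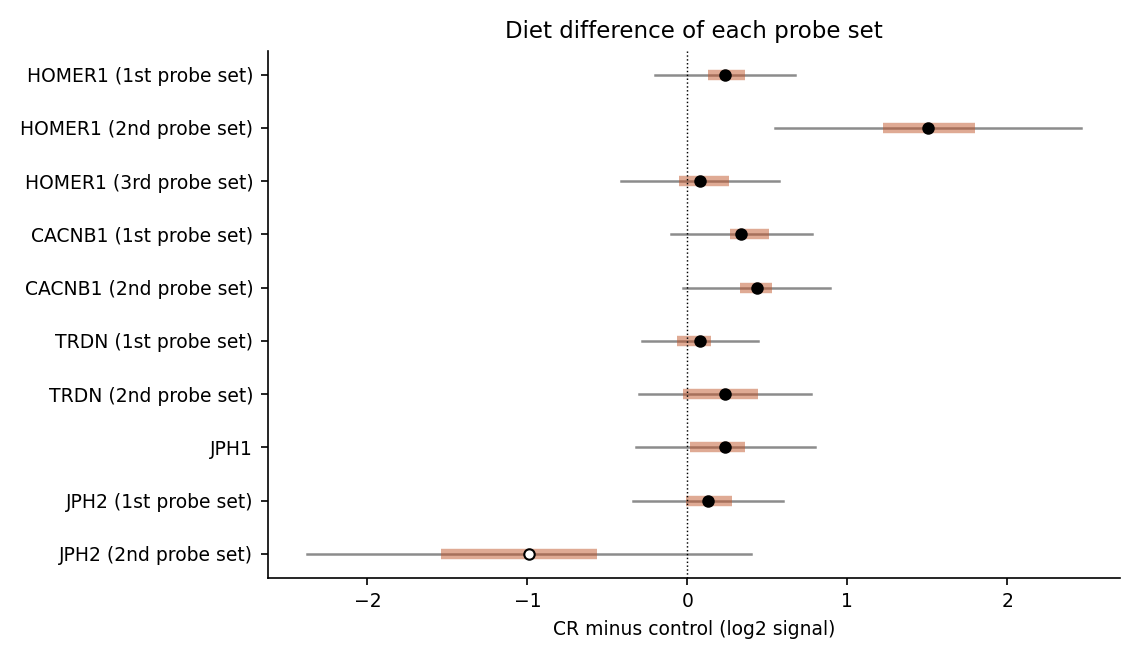
Difference of CR minus control (log2) for each probe set. Points are estimates, filled where the probe set was tested and open for the dim JPH2 probe set. Grey lines are 95% intervals, given as description because HOMER1 was chosen from this contrast. Orange bars span the estimates with each animal left out in turn. The second HOMER1 probe set stands at 1.50, and the other tested ones lie between 0.080 and 0.43.

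Between different genes, 1 of 14 correlations within the diets passed after adjustment over all 19 pairs. The first probe sets of CACNB1 and JPH2 had r = 0.76 (permutation p = 0.00352, adjusted p = 0.0334) and rho = 0.63 (adjusted p = 0.171), so that the rank correlation did not pass. Without the 2 farthest animals r was 0.63, and within CR animals 0.71 (exact permutation p = 0.0511, n = 8). The first TRDN probe set and JPH1 had r = 0.69 (adjusted permutation p = 0.102), or 0.37 without control replicate 4 and CR replicate 8. The first HOMER1 probe set had r = 0.63 with JPH2 (adjusted permutation p = 0.125), and the second had -0.56 (adjusted permutation p = 0.200). All signals of 1 animal share an array and its scaling.

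Fibre type could be set against these genes without using the diet contrast. Slow-twitch and fast-twitch fibres differ in how they store and pump calcium. A fibre index was made for each animal, the mean log2 signal of 8 slow sarcomere markers (such as TNNT1 and MYL2) minus that of 8 fast ones (such as TNNT3 and MYL1), each centred over the animals. The index ran from -3.26 (replicate 8) to 2.41 (replicate 1) in CR animals and from -1.01 (replicate 4) to 1.36 (replicate 5) in controls. In limma's fit of diet and index over all 26383 probe sets, 62 rose with the index (0.235%) and 5 fell (0.019%) at an adjusted p under 0.05, and 7.51% had an unadjusted p under 0.05. Of the 9 tested probe sets 0 passed the adjusted threshold and 0 had an unadjusted p under 0.05. Slopes, in log2 signal per unit of the index, were -0.13 ± 0.071 for the first HOMER1 probe set and -0.13 ± 0.081 (SE) for the third (limma adjusted p = 0.767 and 0.828). The second HOMER1 probe set had 0.11 ± 0.17, and the others lay between -0.070 (JPH2) and 0.060 (TRDN, second probe set).

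The slopes within each diet ran in opposite directions for HOMER1. In the first probe set the slope was -0.21 ± 0.052 in CR animals and 0.35 ± 0.13 in controls (SE), and in the third it was -0.23 ± 0.054 in CR animals and 0.47 ± 0.13 in controls. For the second HOMER1 probe set the signs were the other way, 0.27 ± 0.15 in CR animals and -0.84 ± 0.36 in controls. The remaining probe sets all had signs like the first, so that 8 of 9 slopes were negative in CR animals and 8 of 9 positive in controls. Over all tested probe sets 48.1% of slopes were negative in CR animals and 50% were positive in controls. These signs are a description, since the probe sets share the 13 arrays and the control slopes rest on 5 animals. The test of the difference between slopes, added after the slopes within diets were seen, called 3 of 9 probe sets where it called 3.57% of all. These were the first HOMER1 probe set (difference -0.56 ± 0.14, limma adjusted p = 0.0410), the third (-0.70 ± 0.14, adjusted p = 0.0301) and the second of TRDN (-0.75 ± 0.18, adjusted p = 0.0419). The direction held with each animal left out, but the calls did not. Without control replicate 4, 0 of all probe sets were called and the adjusted p was 0.363, 0.317 and 0.537 for these 3, with differences of -0.68, -0.86 and -0.58. All 3 calls were also lost without control replicate 5, with adjusted p of 0.179, 0.125 and 0.159, without control replicate 1 (0.0750, 0.0554 and 0.0784) and without CR replicate 8 (0.0910, 0.0800 and 0.111). Of these, control replicates 4 and 5 had the lowest and the highest index among controls, and CR replicate 8 the lowest of all. The first HOMER1 call was lost as well without control replicate 3 or CR replicate 1, 4 or 5, and the TRDN call without CR replicate 1, 3, 4 or 5. With all animals, the 3 calls were lost with median centring (adjusted p = 0.102, 0.0635 and 0.0609), without the variance trend (0.0815, 0.0654 and 0.0815) and with RNA quality covariates (0.0745, 0.0619 and 0.0796). With no filter on dim probe sets only the call of the third HOMER1 probe set was left (0.0402), and with quantile normalization the TRDN call was lost (0.0548).

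**Figure D5:**
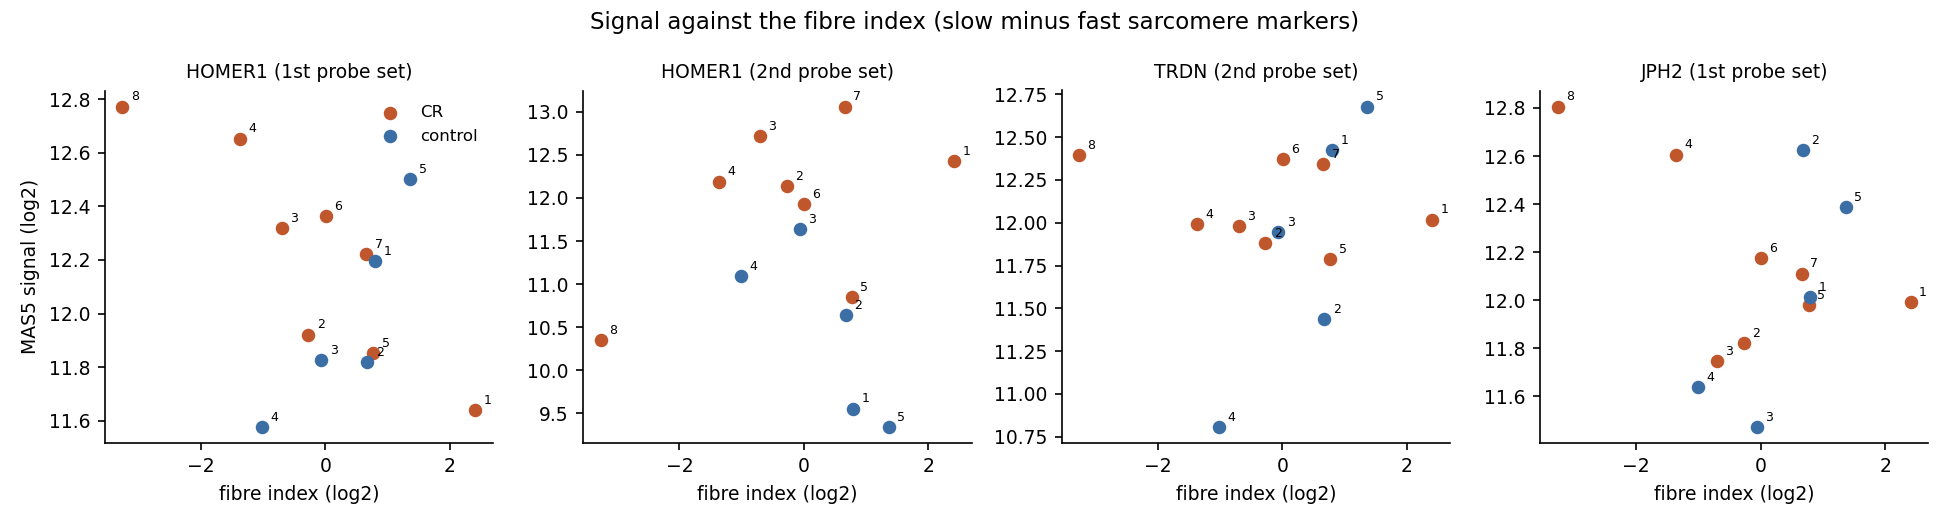
Log2 MAS5 signal against the fibre index (log2, slow minus fast sarcomere markers) for the first and second HOMER1 probe sets, the second TRDN probe set and the first JPH2 probe set. Points are animals with replicate numbers, 8 CR and 5 control. In the first panel CR animals run downward from replicate 8 to replicate 1 and controls upward from replicate 4 to replicate 5.

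Other genes of the triad and of calcium handling, from a list of 54, had probe sets for 41 and were bright enough to be tested for 37. Of these 22 had the higher mean in CR and 15 the lower, where 48.1% of all probe sets were higher, and their median difference was 0.067, against -0.012 over all probe sets. Of the 37, 0 passed limma's test and 0 had an unadjusted p under 0.05. Without control replicate 4, 15 of 37 were higher and the median was -0.018, where 47.8% of all probe sets were higher and their median was -0.013. The highest values were 0.49 ± 0.26 (SE, log2) for ASPH, whose gene also encodes junctin, 0.45 ± 0.29 for the calmodulin kinase gene CAMK2B, 0.31 ± 0.32 for STAC3, an adaptor that the voltage sensor needs, and 0.30 ± 0.29 for the kinase gene SPEG. Each moved with 1 control left out: SPEG was at -0.011 and CAMK2B at 0.14 without control replicate 4, STAC3 at 0.045 without control replicate 3, and ASPH at 0.29 without control replicate 2. The other ASPH probe sets lay between -0.42 and 0.0053.

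CASQ2, the cardiac and slow-fibre calsequestrin, had the lowest value of the list, -1.66 ± 0.79 (SE, log2). It was -2.11 without CR replicate 1 and -1.29 without CR replicate 4, the ends of the range with each animal left out. The log2 signal of CASQ2 ran from 8.65 to 14.37 in CR animals, with an SD of 2.03. In control replicates 1 to 5 it was 12.20, 12.64, 12.69, 14.09 and 12.97. ATP2A2, the slow and cardiac calcium pump, differed by -0.66 ± 0.67, and by -0.20 without CR replicate 8, whose log2 signal of 11.21 was the lowest of all. ITPR1, an inositol trisphosphate receptor, had -0.32 ± 0.29, which shrank to -0.089 when control replicate 4 was left out. Its other probe sets ran from -0.68 to 0.94. FKBP1A, which binds the release channel, had -0.28 ± 0.31, with -0.50 without control replicate 4 and -0.14 without control replicate 3. ATP2A2 was the 1 gene of 37 that passed the test on the fibre index, with a slope of 0.93 ± 0.084 (limma adjusted p = 7.16e-05). That slope was 0.92 in CR animals alone and 1.04 in controls alone, and the gene's other probe set had 1.25. With an index from the fast markers alone it was 0.90 and did not pass (limma adjusted p = 0.808).

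Markers of fibre types and other cells are given as median log2 differences of CR minus control, with the range of the median when each animal is left out. In all these lists 0 members passed limma's test and at most 1 had an unadjusted p under 0.05. Endothelium, pericyte and smooth muscle markers had a median of -0.43, with 9 of 9 lower in CR where 48.1% of all probe sets were higher, and summed signals of 8204 to 29020 in CR animals and 12512 to 38986 in controls. Without control replicate 4 that median was -0.17. Slow sarcomere markers had -0.48 with 8 of 8 lower, but -0.030 with 4 of 8 lower without CR replicate 8, and -0.93 without control replicate 4. Fast ones had 0.26 with 6 of 8 higher, and 0.11 without control replicate 4. The median was -0.66 for adipocytes (-1.08 to -0.32), -0.22 for macrophages (-0.42 to -0.0053), -0.34 for denervation and junction (-0.44 to -0.19) and -0.32 for cardiac muscle (-0.48 to -0.14). Of the adipocyte markers 2 of 3 were lower. Without control replicate 4 and CR replicate 8 their median was 0.14, with 2 of 3 higher. In the cardiac list MYH6 was bright and rose with the fibre index (slope 0.92, limma adjusted p = 0.00063). NPPA, MYL7 and MYL4 were dim, with mean log2 signals of 7.14 to 8.58 per diet. The median changed sign with 1 animal left out for fibroblasts and matrix (-0.014, from -0.22 to 0.19), blood (-0.19, from -0.65 to 0.15), nerve (-0.030, from -0.13 to 0.076) and skeletal fibres (-0.0065, from -0.16 to 0.059). These medians come from 2 to 9 probe sets each, and their part in the values of HOMER1 and the triad genes was not tested.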

How the data were processed

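RNA was isolated with Trizol, and labelled cRNA was put on 1-colour arrays by the maker's protocol, per the labels. The deposited values are linear intensity values made by the authors with MAS5, per the submitters' processing notes, whose version was not stated. The 2% trimmed mean was 500.0 on every array. After removal of 99 control probe sets, values under 1 were set to 1 and log2 was taken. The 26383 probe sets in the brighter 50% by mean log2 signal (at least 107 as a geometric mean) entered limma 3.58.1 in R 4.3.3 (lmFit, then eBayes with trend), two-sided, at an adjusted p of 0.05. The number of arrays limits the precision. Names came from the platform annotation, in which 24956 probe sets had 1 symbol and 361 had several. A list or the fibre index used the brightest probe set per gene.

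The genes and lists were chosen with earlier results of these data known. Named genes were all members, the 4 highest and 4 lowest differences among other triad genes, those past the fibre index test, and the 3 genes most like each HOMER1 probe set. Correlations used 100000 two-sided permutations within diets in numpy 2.4.6, or all orders for CR animals alone. The tests of diet, fibre index and correlation within diets were checked on simulated data, and the test of the slope difference was not. Each array is 1 animal, and equal replicate numbers across diets mark no known pairs. Alternatives covered scaling, offset, filters, moderation, array weights, RNA quality covariates, the replicate number as a block, other fibre indices and left-out animals. Figures were drawn with matplotlib 3.10.9.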

Additional observations from a re-analysis of the deposited data

Results flagged for a closer look

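The slope on the fibre index differed between the diets, in a test over all probe sets, for 3 of the 9 tested probe sets described here. Of all tested probe sets 3.57% were called. This test was added after the slopes within each diet were seen, and 2 of the 3 are HOMER1 probe sets that moved together within the diets (r = 0.94). The slope in CR minus that in controls was -0.56 for the first HOMER1 probe set, -0.70 for the third and -0.75 for the second of TRDN. None was called without control replicate 1, 4 or 5 or without CR replicate 8, nor with median centring, RNA quality covariates or no variance trend, and whether these animals account for the difference was not tested. Dixon's test looked for an animal far from the rest of its group in 22 groups of 5 or 8 animals. These were the 10 probe sets and the fibre index in each diet. It flagged 0, where chance gives about 1 in 20, or 1.1. Groups this small can leave such an animal unflagged: for JPH1, control replicate 4 lay at 9.19, with the next control at 10.09.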

How the results depend on the processing

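The diet differences of the first and second HOMER1 probe sets and of both CACNB1 probe sets kept their sign under all alternatives run. The test over all probe sets called 0 for diet (641 at an unadjusted p under 0.05) and 0 to 1 with each animal left out, 67 for the fibre index (28 without CR replicate 8, 93 without control replicate 4) and 942 for the slope difference (0 to 1944). These counts of the index and of the slope difference were 31 and 15 with RNA quality covariates, and 42 and 24 without the variance trend. They were 34 and 0 without control replicate 4 and CR replicate 8, a pair chosen after seeing the data, as were the slope difference and the marker lists with animals left out. The slope difference was called for 2661 with array weights, 429 with median centring and 403 with no filter. The index count was 44 with slow markers alone, 20 without the 2 animals farthest from the median index, and 489 in controls alone. With the replicate block the counts were 0 for the index and 5 for the slope difference, and slopes on the index turned to 0.042 (CACNB1, second), 0.26 (JPH1), 0.11 (JPH2) and -0.22 (TRDN, second), while ATP2A2 fell to 0.32 and was not called. The 3 slope differences of HOMER1 and TRDN were not called with that block either (limma adjusted p = 0.209, 0.209 and 0.242). Same-numbered animals of the 2 diets correlated with r from -0.20 to 0.020 in their deviations, and none correlated best with its own number, so the numbers were not taken as pairs. Of the slopes described for HOMER1 and the triad genes on the index, none passed an adjusted p of 0.05 under any alternative run and 9 of 9 changed sign under some, for which the cause was not tested. Without the 2 farthest animals they were 0.049, -0.55 and 0.066 for HOMER1 in the order of its probe sets, 0.063 (CACNB1, second), 0.088 (TRDN, first), 0.16 (JPH1) and 0.13 (JPH2). In controls alone they were 0.35, -0.84 and 0.47 for HOMER1, 0.13 (CACNB1, second), 0.34 (TRDN, first), 0.47 (JPH1) and 0.39 (JPH2), and in CR animals alone -0.027 (CACNB1, first) and -0.049 (TRDN, second). The second TRDN slope was -0.098 with RNA quality covariates and -0.32 with fast markers alone. The first CACNB1 slope was -0.070 with fast markers alone, -0.0063 with array weights and -0.00068 with quantile normalization. The first TRDN slope was 0.0046 with slow markers alone and 0.00088 with median centring. Without control replicate 4 and CR replicate 8 the slope was -0.20 for the second HOMER1 probe set and 0.052 for JPH1. With each animal left out, slopes ran from -0.25 to 0.18 (HOMER1, second), -0.017 to 0.088 (CACNB1, first), -0.051 to 0.061 and -0.020 to 0.20 (TRDN, first and second), -0.14 to 0.17 (JPH1) and -0.11 to 0.054 (JPH2).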
